A study of Marchantia polymorpha with 12 samples.

Results

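Gene transcripts of unwounded plants of the liverwort Marchantia polymorpha were compared between a fatty acid desaturase double mutant and Tak-1, the male wild-type accession. The comparison takes the 3 mock libraries of each genotype, 6 of the 12 libraries of the study, and all 20574 genes of the count table, of which 13726 had enough counts to be tested. All plants were grown for 3 weeks on agar medium, and each library is a pool of 6 to 8 plants. The treatment label of these libraries reads mock, 2 hours; the other libraries are from plants of the same genotypes wounded with tweezers. Sample titles call the mutant Mpfad3fad7, while the growth protocol calls it Mpdes6fad5. How the mutant was made, and whether it is 1 line or several, is not given in the sources used here. The harvested tissue was described as fragments of the thallus apex from which gemma cups (the cups that bear clonal propagules) had been left out.

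Fatty acid desaturases place double bonds into the acyl chains of membrane lipids. Omega-3 desaturases, in the plastid or in the endoplasmic reticulum, make the trienoic fatty acids of chloroplast and other membranes. Lipoxygenases oxidise such fatty acids on the route to jasmonates, hormones that in Marchantia act through the receptor COI1 and the repressor JAZ. Unwounded plants give the level from which a wound response starts.

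The mock libraries held 19121900 to 30821817 counts each. Levels are given in CPM, a gene's counts scaled to a common library total by TMM, and fold changes as log2 of mutant over Tak-1 from edgeR's quasi-likelihood fit. Calls use an adjusted p under 0.05 (Benjamini-Hochberg, all genes tested). The libraries of a genotype were not equally alike. Mutant mock library 1 correlated, across genes, at 0.983, 0.979 and 0.985 in log2 CPM with the Tak-1 mock libraries, and at 0.982 and 0.979 with mutant libraries 2 and 3, which correlated with each other at 0.988. A range of over 1 log2 unit among the mutant mock libraries was seen for 1413 genes (10.3%), and among the Tak-1 mock libraries for 1167 genes (8.50%).

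A total of 620 genes differed between the unwounded genotypes (4.52% of those tested). Of these, 275 were higher in the mutant (2.00%) and 345 lower (2.51%). The higher genes mostly moved by little, with a median log2 fold change of 0.38, and only 36 of them changed by at least 2-fold (0.262%). Lower genes had a median of -1.55, and 217 of them changed by at least 2-fold (1.58%). Of these 217, 159 (73.3%) had a range of over 1 log2 unit among the mutant mock libraries, beside 10.3% of all genes. Among the Tak-1 mock libraries 121 of them (55.8%) had such a range, beside 8.50% of all genes. The median of all genes tested was 0.003. Genes whose 3 mutant values did not overlap the 3 Tak-1 values made up 24.8% of all genes tested, 12.4% in each direction.

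**Figure D1:**
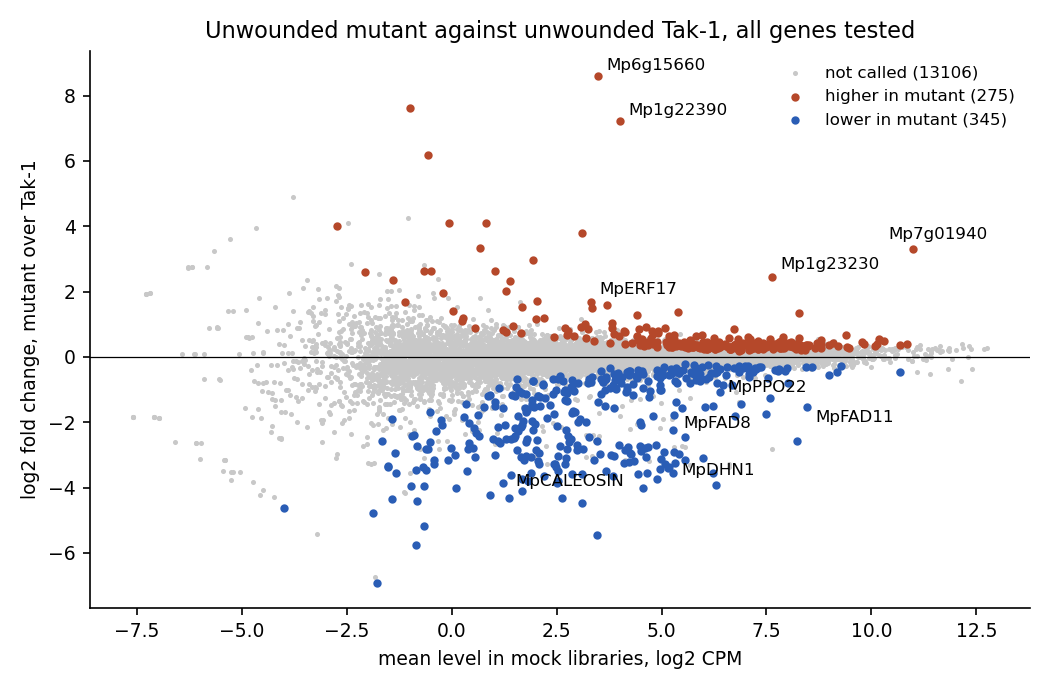
Log2 fold change (mutant over Tak-1, vertical axis) against the mean level in the 6 mock libraries (log2 CPM, horizontal axis), with 1 point for each gene tested. The 275 higher genes lie mostly close to 0, while 217 of the 345 lower genes lie at least 1 log2 unit below it.

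The number of calls depended on single libraries. With the fit repeated, leaving out Tak-1 mock library 1, 2 or 3 left 247, 145 and 486 genes called, and leaving out mutant mock library 1, 2 or 3 left 727, 138 and 173. Each of these fits keeps the other libraries, and a smaller group then has 2 samples. Of the 620 calls, 109 stood in all 6 of these fits (0.794% of the genes tested), 34 higher (0.248%) and 75 lower (0.546%). Of the 2538 genes tested that have a symbol, 129 were called (5.08%), 30 higher (1.18%) and 99 lower (3.90%). Among them 33 stood in all 6 fits, 4 higher and 29 lower. These 109 are called steady below, and most other calls named are given with the libraries on which they depended.

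**Figure D2:**
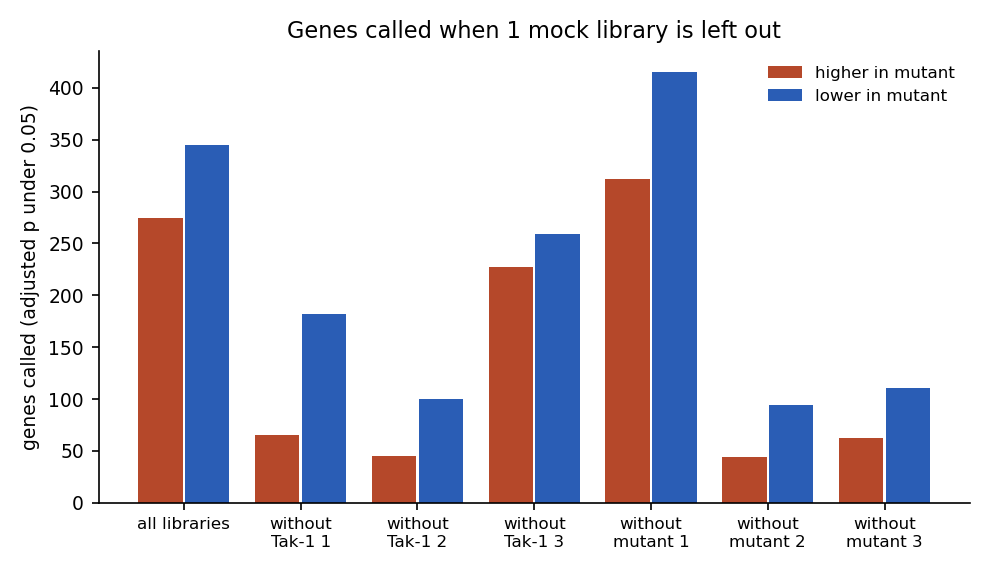
Number of genes called higher or lower in the mutant (vertical axis) with all libraries and with 1 mock library left out. The total fell from 620 to between 138 and 247 without Tak-1 library 1 or 2 or without mutant library 2 or 3, and rose to 727 without mutant library 1.

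The genes named in the labels were not lower in the mutant. MpFAD3 (Mp2g24510), which shares its name with an omega-3 desaturase of the endoplasmic reticulum in Arabidopsis, stood at 205, 217 and 218 CPM in unwounded Tak-1 (libraries 1, 2 and 3) and at 250, 255 and 235 CPM in the mutant ones (0.21 ± 0.06 (SE), adjusted p = 0.0680). MpDES5 (Mp3g13250), which the reference gene table also lists as MpFAD7, stood at 123, 124 and 132 CPM against 152, 137 and 140 CPM (0.18, adjusted p = 0.0887). For both genes every mutant value was above every Tak-1 value, without passing the test. MpDES6 (Mp6g17330) had 78.6, 77.6 and 84.7 CPM against 106, 83.7 and 80.2 CPM, which overlap (0.17, adjusted p = 0.538). MpFAD5 (Mp3g10660) had 234, 202 and 247 CPM against 295, 343 and 300 CPM, all higher in the mutant (0.46 ± 0.08 (SE), adjusted p = 0.0133). With Tak-1 library 2 left out MpFAD5 was not called (adjusted p = 0.0572), nor with mutant library 2 left out (0.0609). Gene counts carry no sequence, so these levels do not check the genotype labels.

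A pair of other desaturase genes was lower in every unwounded mutant library, and both were steady. MpFAD11 (Mp5g20700) had 507, 499 and 569 CPM in Tak-1 and 164, 193 and 183 CPM in the mutant, without overlap and with little spread in either group (-1.55 ± 0.10 (SE), adjusted p = 3.68e-06). MpFAD8 (Mp3g17690) had 55.4, 76.6 and 59.4 CPM against 20.9, 9.98 and 9.52 CPM (-2.23 ± 0.24 (SE), adjusted p = 0.000475). Mutant library 1 was the highest of its group for MpFAD8 and still below each Tak-1 library. Of the 14 desaturase genes tested, 1 rose and 2 fell, beside 2.00% and 2.51% of all genes, with a median log2 fold change of 0.16. The remaining 11 were not called; among them MpFAD10, at 541, 515 and 551 CPM against 582, 720 and 626 CPM, was the most abundant (0.26, adjusted p = 0.102). MpFAD6 overlapped between the groups, at 23.8, 38.3 and 21.4 CPM against 32.0, 15.3 and 18.6 CPM (adjusted p = 0.582).

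**Figure D3:**
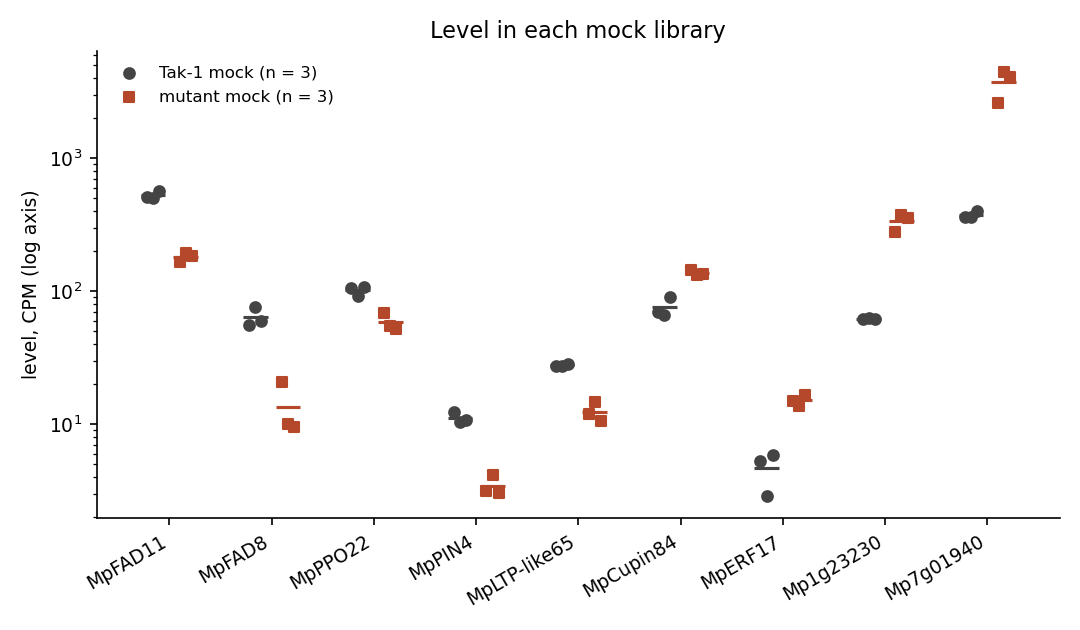
CPM (log axis) in each mock library for 9 genes called in the full fit and in all 6 leave-outs, with circles for Tak-1, squares for the mutant and a line at each group's mean. The groups do not overlap for any gene shown; MpFAD11 went from 525 to 180 CPM and Mp7g01940 from 373 to 3702 CPM on average.

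Few jasmonate genes were called before wounding. None of the 6 genes tested of the jasmonate signalling list was called, and the median log2 fold change of the list was -0.12. MpJAZ, the repressor that jasmonate perception removes, had 27.0, 28.3 and 30.6 CPM in Tak-1 and 26.3, 26.9 and 25.5 CPM in the mutant (-0.13, adjusted p = 0.629). MpCOI1, the receptor subunit, had 111, 114 and 107 CPM against 101, 105 and 96.5 CPM (-0.13, adjusted p = 0.204). The repressor partners MpNINJA (-0.11, adjusted p = 0.269) and MpTPL (-0.04, adjusted p = 0.779) were not called either. The list also holds MpCYP94-like, of a P450 family that breaks down jasmonates in flowering plants, at 1.01, 0.860 and 0.656 CPM against 0.579, 0.898 and 0.374 CPM (-0.46, adjusted p = 0.460), and MpCYP94L1 of the same family (0.09, adjusted p = 0.793). Among 17 genes of the lipoxygenase, CYP74, AOC and OPR list, 2 fell and none rose, beside 2.51% and 2.00% of all genes, and the median log2 fold change was -0.29. Of the 19 genes of jasmonate synthesis and signalling named by rule that were not called, 16 had a log2 fold change below 0. The CYP94 genes are not among these 19. The median of all genes tested was 0.003, and the share of all genes below 0 was not taken.

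Lipoxygenases with high levels moved by 0.30 log2 units or less without passing the test. MpLOX14 had 557, 638 and 570 CPM in Tak-1 and 461, 521 and 494 CPM in the mutant (-0.26 ± 0.10 (SE), adjusted p = 0.167). MpLOX2 had 228, 226 and 252 CPM against 180, 201 and 204 CPM (-0.27 ± 0.10 (SE), adjusted p = 0.177). MpCYP74N2, of the P450 family that converts fatty acid hydroperoxides, had 287, 262 and 295 CPM against 237, 233 and 216 CPM (-0.30, adjusted p = 0.186). In all 3 genes each mutant value was below each Tak-1 value. Larger differences that missed the threshold were seen in scarcer lipoxygenase genes. MpLOX3 had 11.1, 13.1 and 10.1 CPM in Tak-1 and 7.38, 1.85 and 4.24 CPM in the mutant, without overlap (-1.31 ± 0.37 (SE), adjusted p = 0.0650). MpLOX1 had 8.04, 6.97 and 8.75 CPM against 9.19, 21.9 and 10.4 CPM, all above Tak-1 (0.77 ± 0.32 (SE), adjusted p = 0.210), and MpLOX5 overlapped (-0.89, adjusted p = 0.193). MpLOX6 and MpLOX8, both scarce, were the 2 genes that fell. MpLOX6 had 0.879, 3.06 and 1.78 CPM against 0.425, 0.158 and 0.0832 CPM (-3.01 ± 0.59 (SE), adjusted p = 0.0186). It was not called without Tak-1 library 2 (0.0650) or mutant library 2 (0.0804) or 3 (0.0714). MpLOX8 had 3.47, 4.30 and 8.21 CPM against 2.51, 1.80 and 2.16 CPM (-1.32 ± 0.32 (SE), adjusted p = 0.0410). Its call was lost in 5 of 6 leave-outs, with adjusted p of 0.0773 without Tak-1 library 2, 0.121 without Tak-1 library 3, and 0.0534, 0.146 and 0.115 without mutant libraries 1, 2 and 3.

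Genes linked to abscisic acid and desiccation formed the group with the lowest median of the 27 lists described. LEA proteins (late embryogenesis abundant proteins) and dehydrins protect cell contents during water loss, and abscisic acid induces many of them in liverworts and mosses. Of 75 such genes tested, 27 fell and 2 rose, beside 2.51% and 2.00% of all genes, and the median log2 fold change was -1.84. With genes of very few counts set to their bound the median was -1.43. Of the 61 genes in the list with an LEA name, 25 fell and 2 rose. The 2 were MpLEA-like11, at 27.7, 27.9 and 29.0 CPM in Tak-1 and 34.0, 46.8 and 50.3 CPM in the mutant (0.63 ± 0.13 (SE), adjusted p = 0.0198), and the scarce MpLEA-like59 (1.10, adjusted p = 0.0188); neither call stood without Tak-1 library 1 or 2 or without mutant library 3 (adjusted p of 0.0558 to 0.0745). The list was chosen with earlier results of these data known, so its direction is not independent evidence.

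The drop was not even across the mutant libraries. The list's median level was 4.29, 5.0 and 4.05 log2 CPM in Tak-1 mock libraries 1, 2 and 3, and 3.41, 0.95 and 0.11 log2 CPM in mutant mock libraries 1, 2 and 3. Mutant library 1 was thus closer to the Tak-1 libraries than to the other mutant ones. In all 27 genes that fell, mutant library 1 was the highest mutant library and Tak-1 library 2 the highest Tak-1 library. These orders held together for 16% of all genes tested, but for 54.5% of all 345 genes that fell. Over the 75 genes of the list, called or not, they held together for 56%. MpDHN1 (Mp6g07540), a dehydrin, shows it. It had 44.5, 106 and 46.6 CPM in Tak-1 and 14.9, 2.69 and 0.333 CPM in the mutant (-3.41 ± 0.73 (SE), adjusted p = 0.0261). Its groups do not overlap, yet on a log scale mutant library 1 lies closer to Tak-1 libraries 1 and 3 than to mutant library 2 or 3. That call was lost without Tak-1 library 2 (adjusted p = 0.0961) or mutant library 2 (0.0996) or 3 (0.0513). MpLEAL1, among the most abundant LEA genes, had 247, 560 and 236 CPM against 130, 12.4 and 4.2 CPM and was not called (-2.82 ± 0.86 (SE), adjusted p = 0.0897).

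Of the 27 calls, 16, 6 and 25 stood without Tak-1 library 1, 2 or 3, and 27, 4 and 7 without mutant library 1, 2 or 3. Among called genes with a symbol, no overlap and a mean of 5 CPM or more in Tak-1, the 12 that fell most were all members of the list. They were MpDHN1, MpLEA2, MpLEAL3, MpLEAL6 and MpLEA-like7, 9, 14, 35, 36, 48, 53 and 61. Their log2 fold changes ran from -3.14 in MpLEA2 to -4.09 in MpLEA-like35. Only MpLEA-like35 of these 12 was steady, at 4.13, 9.50 and 4.47 CPM in Tak-1 and 0.695, 0.264 and 0.0416 CPM in the mutant (-4.09 ± 0.65 (SE), adjusted p = 0.00710). In contrast, the other 11 calls were lost without Tak-1 library 2 (adjusted p up to 0.133) and without mutant library 2 (up to 0.117).

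**Figure D4:**
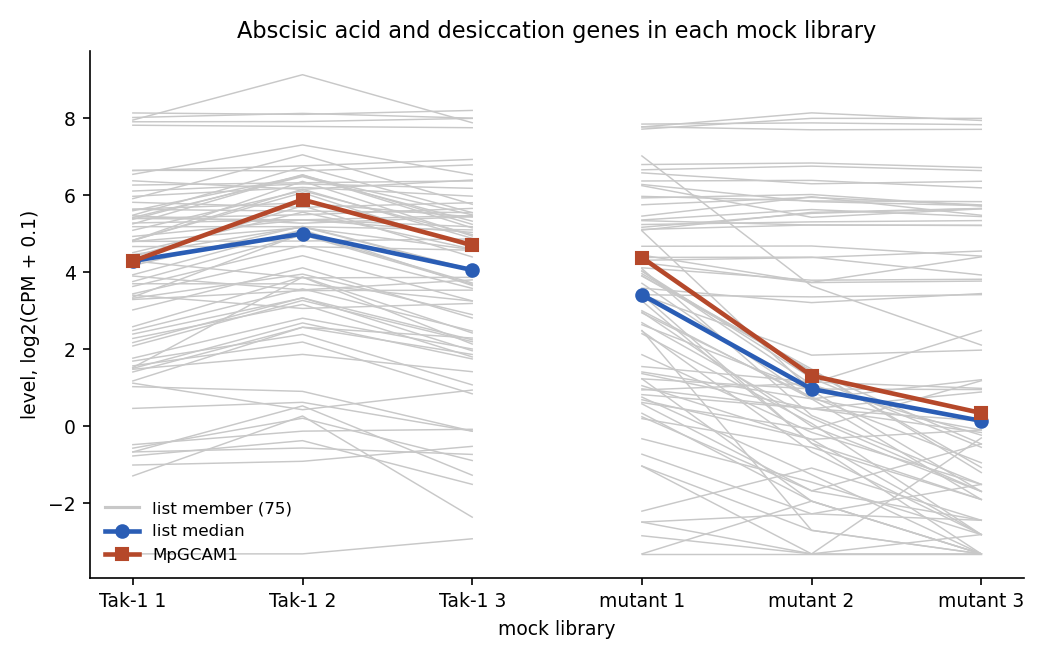
Level (log2 of CPM + 0.1) in each mock library of 75 abscisic acid and desiccation genes (grey), of their median (circles) and of MpGCAM1 (squares); lines join the values of the same gene within a genotype and the libraries have no order. The list median lies at 3.41 log2 CPM in mutant library 1 and at 0.95 and 0.11 in libraries 2 and 3; MpGCAM1 lies at 20.7, 2.38 and 1.16 CPM.

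A few genes of this group were lower in the mutant whichever library was left out. MpCALEOSIN (Mp5g05270), of a family of lipid droplet proteins, had 2.55, 5.83 and 4.78 CPM in Tak-1 and 0.502, 0.106 and 0.249 CPM in the mutant (-3.84 ± 0.45 (SE), adjusted p = 0.000952). MpLEA-like4 had 9.89, 15.3 and 7.34 CPM against 2.82, 2.11 and 1.87 CPM (-2.23 ± 0.27 (SE), adjusted p = 0.00116), with the mutant libraries close to each other. MpLEA-like40 had 40 counts over the Tak-1 libraries and 1 over the mutant libraries, a 36.4-fold ratio of CPM with a 95% counting interval of 6.17 to 1473 (adjusted p = 0.00476). Outside the list, MpCYP707A (Mp2g25940), of the P450 family that breaks down abscisic acid, had 3.51, 6.50 and 5.43 CPM against 0.734, 1.27 and 1.54 CPM (-2.14 ± 0.37 (SE), adjusted p = 0.0112). Mutant library 1 was the lowest of its group for MpCYP707A, unlike in the LEA genes that fell.

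Core abscisic acid genes did not pass the test. The receptor gene MpPYL1 had 100, 99.1 and 110 CPM in Tak-1 and 101, 108 and 99.5 CPM in the mutant (-0.01, adjusted p = 0.984). MpABI3A, a transcription factor of the response, had 62.5, 73.5 and 62.7 CPM against 62.5, 57.6 and 56.8 CPM (-0.17, adjusted p = 0.336). The kinase genes MpSNRK2A (-0.20, adjusted p = 0.169) and MpSNRK2B (-0.11, adjusted p = 0.490) and the synthesis genes MpABA1 (-0.03, adjusted p = 0.918) and MpNCED (-0.77, adjusted p = 0.546) were not called. MpABI5B had 30.3, 40.9 and 32.6 CPM against 25.4, 25.5 and 21.2 CPM (-0.52, adjusted p = 0.0788), and MpABI5A overlapped (0.08, adjusted p = 0.702). Each mutant value was below each Tak-1 value for MpABI5B, MpABI3A, MpSNRK2A and MpSNRK2B. For MpPYL1, MpABA1 and MpNCED the groups overlap. The other dehydrin genes, MpDHN2 (0.21, adjusted p = 0.490) and MpDHN3 (0.39, adjusted p = 0.311), did not follow MpDHN1.

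A gene of gemma cup formation was, like the LEA genes that fell, highest in Tak-1 library 2 and mutant library 1 within their groups. MpGCAM1 (Mp6g04830), a MYB factor that gemma cups need to form, stood at 19.4, 58.9 and 25.9 CPM in unwounded Tak-1 and at 20.7, 2.38 and 1.16 CPM in the unwounded mutant. The groups overlap, and the gene was not called (-2.06 ± 0.75 (SE), adjusted p = 0.155), though it was without mutant library 1 (0.00119). MpMFT, of the family of flowering and dormancy regulators in seed plants, had 34.3, 85.5 and 36.9 CPM against 30.6, 6.02 and 4.41 CPM (adjusted p = 0.105; 0.00188 without mutant library 1). Of the 10 rhizoid, air pore and gemma cup genes tested, none was called, and their summed level was 934 to 949 CPM in Tak-1 and 909 to 988 CPM in the mutant. MpKAR, which gemma initiation needs, had 41.1, 41.8 and 43.0 CPM against 50.4, 48.9 and 54.5 CPM (adjusted p = 0.161), and MpFRH1 was at 0 in Tak-1 library 2. Whether tissue of the cups had a part in the LEA result was not tested. In such bulk tissue fewer cells of a type and less RNA per cell cannot be told apart.

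Among genes with a symbol and a mean of at least 5 CPM over the mutant mock libraries, the 12 with the largest range between these libraries were taken. Of these, 9 belong to the desiccation list, and mutant library 1 was the highest mutant library in each of them. The other 3 were MpGCAM1, the dirigent gene MpDIR44 and the lipid transfer gene MpLTP-like72. MpLTP-like72 had 10, 30.3 and 10.2 CPM in Tak-1 and 15.7, 1.74 and 1.16 CPM in the mutant, and was not called (adjusted p = 0.345). Over the 345 genes that fell, mutant library 1 was the highest mutant library in 62.9%, against 37.3% of all genes tested, and Tak-1 library 2 the highest Tak-1 library in 71.3%, against 35.6%. Over the 275 genes that rose these shares were 16% and 14.5%.

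Dirigent and polyphenol oxidase genes were the next group with many lower members. Dirigent proteins steer the coupling of phenolic radicals, as in lignan formation, and polyphenol oxidases oxidise phenols. Of 83 genes in the list of dirigent, laccase and polyphenol oxidase genes, 12 fell and 1 rose, beside 2.51% and 2.00% of all genes, while the median was -0.03. Of the 12, 8, 7 and 10 stood without Tak-1 library 1, 2 or 3, and 11, 5 and 7 without mutant library 1, 2 or 3. MpPPO22 (Mp5g18380) was steady at 106, 92.3 and 108 CPM in Tak-1 and 68.5, 54.5 and 52.0 CPM in the mutant (-0.81 ± 0.11 (SE), adjusted p = 0.00256).

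A total of 6 dirigent genes that follow each other in the gene order all fell, with a median of -2.28. MpDIR47 (Mp3g24150) had 124, 234 and 142 CPM in Tak-1 and 64.1, 46.8 and 30.6 CPM in the mutant (-1.82 ± 0.29 (SE), adjusted p = 0.00669). MpDIR64 (Mp3g24210) had 51.8, 106 and 50.8 CPM against 17.2, 6.44 and 3.74 CPM (-2.90 ± 0.45 (SE), adjusted p = 0.00653). The groups overlap in neither gene, and Tak-1 library 2 and mutant library 1 were the highest of their groups, as in the LEA genes that fell. MpDIR46, MpDIR47, MpDIR48 and MpDIR64 were steady. MpDIR45 was lost without mutant library 2 (adjusted p = 0.0559), and MpDIR44 without Tak-1 library 2 (0.0778) or mutant library 2 (0.0829) or 3 (0.0520). Counting may have split or dropped reads that such similar neighbours have in common, which makes the values of each uncertain.

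P450 genes, enzymes of secondary metabolism and hormone turnover, fell in 8 of 89 cases and rose in none, beside 2.51% and 2.00% of all genes (median -0.13). MpCYP716-like23 had 8.04, 7.07 and 7.09 CPM in Tak-1 and 2.78, 3.54 and 3.74 CPM in the mutant (-1.14 ± 0.19 (SE), adjusted p = 0.00909). MpCYP822-like5 had 22.4, 18.7 and 20.8 CPM against 12.1, 13.8 and 9.77 CPM (-0.79 ± 0.14 (SE), adjusted p = 0.0114). Both genes and MpCYP707A were steady, while the 8 calls numbered 3 without mutant library 2 or 3.

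Nutrient transport genes fell in 8 of 52 cases and rose in none, beside the same shares of all genes (median -0.25). The metal transporter genes MpZIP3, at 89.0, 97.3 and 91.4 CPM in Tak-1 and 61.5, 67.1 and 73.0 CPM in the mutant (-0.46 ± 0.07 (SE), adjusted p = 0.00653), and MpZIP1, at 14.1, 16.6 and 15.7 CPM against 7.69, 9.35 and 10.1 CPM (-0.77 ± 0.13 (SE), adjusted p = 0.00878), were steady. Between 3 and 5 of the 8 calls stood in each leave-out. Among 131 genes of detoxification (glutathione and sugar transferases, export pumps), 6 fell and 1 rose, beside 2.51% and 2.00% of all genes, and 3 of the 6 stood without Tak-1 library 2 or without mutant library 2 or 3. MpUGT3 had 4.09, 4.59 and 2.19 CPM in Tak-1 and 0.348, 0.106 and 0.0832 CPM in the mutant and was steady (-4.22 ± 0.61 (SE), adjusted p = 0.00432). The export pump gene MpABCG33, at 72.4, 67.4 and 85.2 CPM against 42.4, 49.7 and 43.6 CPM, was steady too (-0.73 ± 0.11 (SE), adjusted p = 0.00653).

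Lipid synthesis and transfer genes went both ways, with 4 higher and 2 lower of 46, beside 2.00% and 2.51% of all genes. Of the 4, none stood without Tak-1 library 1 or without mutant library 2 or 3. MpLTP-like65, for a lipid transfer protein, stood at 27.2, 27.5 and 28.2 CPM in Tak-1 and at 11.9, 14.7 and 10.5 CPM in the mutant (-1.16 ± 0.13 (SE), adjusted p = 0.000584), and was steady. MpCER1, of the wax alkane pathway, rose from 56.4, 58.4 and 57.0 CPM to 69.0, 81.7 and 76.4 CPM (0.40 ± 0.08 (SE), adjusted p = 0.0148). That call was lost without Tak-1 library 1 (0.0515) or 2 (0.0502) and without mutant library 2 (0.0714) or 3 (0.0536).

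Hormone genes of the auxin and cytokinin list rose in 3 and fell in 5 of 59 cases, beside 2.00% and 2.51% of all genes. In each leave-out 1 to 4 of the 5 stood, and 0 to 2 of the 3, with none of the 3 left without Tak-1 library 2 or mutant library 2. MpPIN4, of the auxin exporter family, had 12.3, 10.4 and 10.7 CPM in Tak-1 and 3.13, 4.12 and 3.04 CPM in the mutant and was steady (-1.71 ± 0.26 (SE), adjusted p = 0.00653). MpPIN3 of the same family was higher, at 23.7, 31.9 and 35.8 CPM against 51.2, 51.5 and 43.2 CPM (0.67 ± 0.13 (SE), adjusted p = 0.0188; 0.0616 without Tak-1 library 2 and 0.0798 without mutant library 2). MpTAA, an enzyme of auxin synthesis, rose from 17.7, 25 and 25.5 CPM to 33.6, 40.9 and 38.5 CPM (0.73 ± 0.16 (SE), adjusted p = 0.0269). The MpTAA call was lost without Tak-1 library 1 (0.0863) or 2 (0.0740) and without mutant library 2 (0.0996) or 3 (0.0800).

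Among the 4 chlorophyll synthesis genes tested, 2 rose (2.00% of all genes did), both for subunits of magnesium chelatase. MpGUN5 had 360, 357 and 435 CPM in Tak-1 and 493, 522 and 494 CPM in the mutant (0.39 ± 0.08 (SE), adjusted p = 0.0265). MpCHLI1/2-like had 231, 223 and 264 CPM against 286, 327 and 302 CPM (0.35 ± 0.09 (SE), adjusted p = 0.0457). The groups overlap for neither gene, but both calls were lost without Tak-1 library 1 (adjusted p = 0.1 and 0.154) or 2 (0.111 and 0.192) and without mutant library 2 (0.0992 and 0.173) or 3 (0.0691 and 0.110). The 5 photosynthesis genes tested held no call.

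Defence protein genes rose in 3 and fell in 2 of 104 cases, near the 2.00% and 2.51% of all genes. All 3 that rose encode cupins, a fold shared by many enzymes and storage proteins. MpCupin84 had 70.2, 66.0 and 90.7 CPM in Tak-1 and 145, 131 and 135 CPM in the mutant (0.86 ± 0.11 (SE), adjusted p = 0.00153) and was steady, as was MpCupin63, at 17.0, 11.8 and 22.2 CPM against 36.9, 30.5 and 30.4 CPM (0.93 ± 0.17 (SE), adjusted p = 0.0130). MpCupin83, which neighbours MpCupin84, was higher as well (0.67, adjusted p = 0.0337), a call that stood without Tak-1 library 3 only (0.0122; 0.0540 to 0.132 in the other leave-outs).

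The other steady genes with a symbol that rose were a transcription factor and an enzyme gene. MpERF17 (Mp4g22280), of the AP2/ERF family, had 5.27, 2.87 and 5.90 CPM in Tak-1 and 15.1, 13.7 and 16.7 CPM in the mutant (1.68 ± 0.27 (SE), adjusted p = 0.00669). Its neighbour MpERF16 was higher too, at 0.571, 0.287 and 0.219 CPM against 1.20, 1.37 and 1.58 CPM (1.96 ± 0.43 (SE), adjusted p = 0.0277). The MpERF16 call was lost without Tak-1 library 2 (0.116) or 3 (0.0860) and without mutant library 2 (0.0863) or 3 (0.0907). Of the 21 AP2/ERF genes tested, these 2 rose and 1 fell, beside 2.00% and 2.51% of all genes. The 1 that fell was MpERF18 (-0.47, adjusted p = 0.0291). Its call was lost without Tak-1 library 1 (0.107) or 3 (0.0656) and without mutant library 2 (0.0804) or 3 (0.101). MpCHS-like, of the chalcone synthase family that starts flavonoid synthesis, had 0.439, 1.53 and 0.687 CPM against 3.24, 5.49 and 4.37 CPM (2.32 ± 0.36 (SE), adjusted p = 0.00653). Of the 80 phenylpropanoid and flavonoid genes tested, 1 rose and 1 fell, beside 2.00% and 2.51% of all genes. MpCHS-like was the 1 that rose, and the methyltransferase gene MpOMT13 the 1 that fell (-3.07, adjusted p = 0.0114).

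Further steady genes that fell cover several roles. MpExpansin32, for a protein that loosens cell walls, had 143, 115 and 137 CPM in Tak-1 and 61.3, 89.8 and 70.1 CPM in the mutant (-0.84 ± 0.13 (SE), adjusted p = 0.00653). MpBHLH12, a transcription factor gene, had 80.1, 91.2 and 81.9 CPM against 62.2, 62.4 and 56.9 CPM (-0.48 ± 0.06 (SE), adjusted p = 0.00187). MpDHAR4, of the enzymes that recycle ascorbate, had 9.93, 13.9 and 7.37 CPM against 2.40, 1.74 and 0.540 CPM (-2.73 ± 0.44 (SE), adjusted p = 0.00710). Beside the same 2.00% higher and 2.51% lower of all genes, groups with few calls were class III peroxidases (1 higher of 111), MYB and bHLH factors (1 lower of 81), terpene and isoprenoid enzymes (1 higher of 52), histones and DNA replication (1 higher of 53) and WRKY factors (1 lower of 13). Heat shock proteins (6 tested), NAC factors (8) and calcium signalling genes (12) held no call. Sperm and antheridium genes held none of 4, with summed levels of 191 to 204 CPM in Tak-1 and 187 to 190 CPM in the mutant. Of 40 genes with a V chromosome ID (the male chromosome), MpVg00020 fell, from 2.81, 4.11 and 4.78 CPM to 0.850, 0.475 and 1.41 CPM (-2.07 ± 0.34 (SE), adjusted p = 0.00800), and no other was called.

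Genes without a symbol made up most calls; the 2 with the smallest adjusted p in each direction follow. Mp7g01940 had 358, 364 and 398 CPM in Tak-1 and 2592, 4442 and 4072 CPM in the mutant, a mean of 373 ± 21.5 (SD, n = 3) against 3702 ± 979 CPM (SD, n = 3) (3.31 ± 0.17 (SE), adjusted p = 1.01e-06). Mp1g23230 had 61.6, 62.9 and 62.0 CPM against 279, 375 and 357 CPM (2.44 ± 0.11 (SE), adjusted p = 2.50e-07). Both differences exceed the spread within either genotype several times over. Among the lower genes, Mp5g11310 had 16.5, 12 and 21.2 CPM in Tak-1 and 0.888, 0.475 and 0.832 CPM in the mutant (-4.47 ± 0.32 (SE), adjusted p = 9.25e-06). Mp4g09430 had 14, 14 and 15.7 CPM against 3.21, 3.8 and 4.03 CPM (-1.99 ± 0.17 (SE), adjusted p = 8.62e-05). All of these were steady.

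A pair of genes, chosen after their values were seen, was close to absent in unwounded Tak-1. Mp6g15660 had 0, 0.143 and 0.0312 CPM in Tak-1, 4 counts in all, and 21.2, 21.1 and 25.2 CPM in the mutant, a 427-fold ratio of CPM with a 95% counting interval of 167 to 1570 (adjusted p = 2.13e-06). Mp1g22390 had 0.132, 0.0478 and 0.375 CPM against 38.6, 33.9 and 23.1 CPM (7.22 ± 0.41 (SE), adjusted p = 1.72e-06). In wounded Tak-1 the same genes had 5.85 ± 2.63 and 8.68 ± 2.31 CPM (SD, n = 3), and in the wounded mutant 24.2 ± 4.65 and 36.0 ± 7.18 CPM (SD, n = 3).

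Some called genes stood beside each other in the order of the reference gene table. Of the 275 higher genes, 28 lay in 11 runs of neighbours called in the same direction, and of the 345 lower genes 63 lay in 25 runs. Of these runs, 13 held 3 or more genes. How many runs as many calls would form if placed at random was not tested. The run around Mp1g22390 holds 4 higher genes, among them Mp1g22380, which had no count in Tak-1 and 0.657, 1.32 and 1.04 CPM in the mutant. Against a floor of 3 counts over the Tak-1 libraries it was at least 24.55-fold higher (adjusted p = 0.00653). A further run of 4 higher genes holds Mp3g09160, Mp3g09180, Mp3g09190 and Mp3g09210. Close to it by ID, Mp3g09220 had 0.967, 1.24 and 1.22 CPM in Tak-1 and 13.6, 15.8 and 19.0 CPM in the mutant (3.81 ± 0.23 (SE), adjusted p = 2.13e-06). Mp3g09160 had 5.84, 6.30 and 3.94 CPM against 15.7, 14.5 and 14.6 CPM (1.49 ± 0.16 (SE), adjusted p = 0.000504). Mp3g09180 had 1 count over the Tak-1 libraries and 90 over the mutant libraries, a 98.9-fold ratio with a 95% counting interval of 17.3 to 3951. MpNBS-LRR6, whose ID lies in the same range and which is of the family of intracellular immune receptors, was not called (1.81 ± 0.54 (SE), adjusted p = 0.0815). Not all called genes near this run were higher. Mp3g09250, Mp3g09260 and Mp3g09270, close by ID, form a run of 3 lower genes (median log2 fold change -2.52, largest adjusted p = 0.0176).

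Most of the genotype difference kept its direction in wounded plants, a comparison that shares no library with the mock one. In wounded plants 1996 genes were called (14.5%), 691 higher (5.03%) and 1305 lower (9.51%). With upper-quartile scaling this split was 1263 higher and 1151 lower, 52.3% higher in place of 34.6%, while that of the mock calls stayed at 44.4%. A total of 113 genes were higher in both, 41.1% of the mock and 16.4% of the wounded calls, and 177 lower in both, 51.3% and 13.6%. Opposite calls were made for 12 genes, of which 10 were higher in mock plants. Of the mock calls, 245 of 275 higher and 319 of 345 lower genes had the same sign after wounding, called or not. The share of all genes tested with the same sign in both comparisons was not taken. The genotype effect itself differed between wounded and mock plants for 451 genes (3.29%), upward for 95 (0.692%) and downward for 356 (2.59%). Of these 451, 23 were among the higher and 23 among the lower mock calls. This contrast reuses the mock libraries, so it is not independent of the mock calls.

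**Figure D5:**
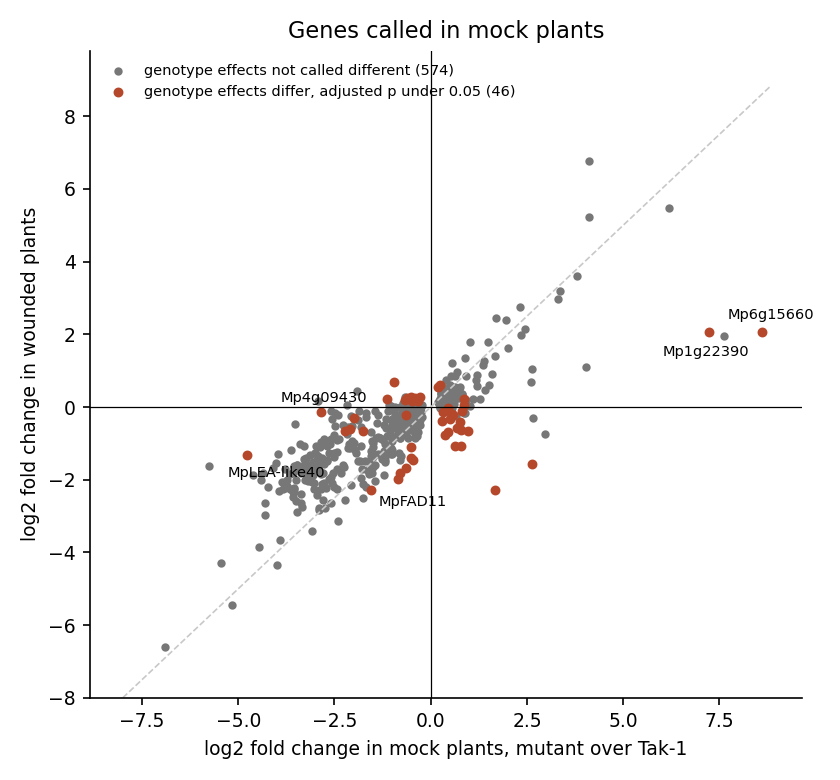
Log2 fold change of mutant over Tak-1 in wounded plants (vertical axis) against that in mock plants (horizontal axis) for the 620 genes called in mock plants; the dashed line marks equal values. Points in colour are the 46 genes whose genotype effects differ at an adjusted p under 0.05, among them Mp6g15660 and Mp1g22390, with 8.60 and 7.22 in mock and 2.06 and 2.06 in wounded plants.

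MpFAD11 and MpFAD8 were lower in the mutant in wounded plants too. MpFAD11 had 838, 1030 and 997 CPM in the wounded Tak-1 libraries and 180, 193 and 219 CPM in the wounded mutant ones (-2.27, adjusted p = 1.35e-07), a wider gap than in mock plants (difference of effects -0.73, adjusted p = 0.0121). MpFAD8 had 115, 118 and 133 CPM against 21.1, 20.1 and 20.9 CPM (-2.56, adjusted p = 1.99e-05). The desiccation genes had list medians of 5.09, 5.15 and 5.24 log2 CPM in wounded Tak-1 and 3.54, 4.67 and 4.06 log2 CPM in the wounded mutant. Of the 75 genes, 13 were lower and 1 higher, beside 9.51% and 5.03% of all genes in wounded plants. Their median log2 fold change was -0.81. The wounded groups of list medians did not overlap. MpGCAM1 had 28.1, 16.9 and 37.6 CPM in wounded Tak-1 and 6.24, 11.3 and 7.22 CPM in the wounded mutant (-1.75, adjusted p = 0.142). The dirigent, laccase and polyphenol oxidase list had 30 lower and 2 higher genes of 83 after wounding, beside the same 9.51% and 5.03% of all genes. All 4 chlorophyll synthesis genes were called higher in the wounded mutant, as were 5.03% of all genes.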

How the data were processed

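The authors deposited raw counts per gene (whole numbers, unequal totals). The submitters' processing notes list the read trimmer Trim Galore, the aligner HISAT2, the counter HTSeq, and edgeR, with no version or setting. Genome build, annotation and strandedness: not given in the sources used here. All 12 columns were used; 2 wounded mutant columns have the same header, so these libraries carry no number and are written A and B.

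Gene IDs were looked up in a gene table of assembly MpTak2_v7.1 (17641 of 20574 matched; 2538 of the 13726 tested IDs have a symbol), used for names and gene order. Counts were analysed in R 4.3.3 with edgeR 4.0.16: filterByExpr by group, TMM, and a quasi-likelihood fit with 1 mean per group over all 12 libraries (8 residual degrees of freedom), so wounded libraries also inform the spread. Tests were two-sided and adjusted by Benjamini-Hochberg over all tested genes; adjusted p-values are edgeR's unless another tool is named. The SE is the absolute log2 fold change over the square root of F. A floor of 3 counts is 0.0937 to 0.158 CPM per library, and floors and 95% intervals cover counting error only. The fit was tested on simulated data.

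Members and lists (by symbol) were chosen with earlier results of these data known. Named genes are desaturases; the 12 genes with a symbol of largest change per direction, among called genes without overlap at 5 CPM or more in the higher group; up to 3 genes per list in its main direction and 1 in the other; jasmonate genes; the 12 symbol genes of largest range among the mutant mock libraries, at a mean of 5 CPM or more there; and 2 genes without a symbol per direction. Symbol genes called in all leave-outs, markers and neighbours were added after values were seen. Replicates are independent plant pools per the labels. Pairs of libraries within the mock groups differed by a chi-square of 8.13 to 20.9 per degree of freedom, so none was counted as a repeat. Alternatives covered other tools, scalings, filters, fits and left-out libraries.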

Additional observations from a re-analysis of the deposited data

Results flagged for a closer look

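For 22 of the named genes the genotype effect differed between wounded and mock plants (edgeR's interaction contrast, adjusted p under 0.05). Values are the log2 difference of the effects, wounded minus mock. This contrast reuses the mock libraries, and many of the named genes were chosen by their values there. A gap that narrows is therefore not independent of that choice. The gap narrowed in wounded plants for Mp6g15660 (-6.54, adjusted p = 0.000561) and Mp1g22390 (-5.16, adjusted p = 0.000561), whose Tak-1 levels were 0.0582 and 0.185 CPM in mock and 5.85 and 8.68 CPM in wounded plants. It also narrowed for MpLEA-like40 (3.45, adjusted p = 0.0409), which had 1 count in the mock mutant, Mp4g09430 (1.69, adjusted p = 0.00123), MpLEA-like4 (1.56, adjusted p = 0.0289), MpDOXC31 (1.09, adjusted p = 0.0429) and MpCupin84 (-0.632, adjusted p = 0.0415).

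The mutant was higher before wounding and lower after it, with both contrasts called, for MpPIN3 (-1.24, adjusted p = 0.00288), MpGH16.15 (-1.71, adjusted p = 0.000987) and MpSQS1 (-0.682, adjusted p = 0.00288). The mock calls of these genes depended on single libraries. That of MpGH16.15 stood only without mutant library 3 (adjusted p = 0.0445; 0.0632 to 0.168 in the other leave-outs). That of MpSQS1 was lost without Tak-1 library 1 (0.150) or 2 (0.130) and without mutant library 2 (0.146) or 3 (0.0759), and that of MpPIN3 without Tak-1 library 2 (0.0616) or mutant library 2 (0.0798). The MpFAD5 mock call was lost without the same libraries as that of MpPIN3 (0.0572 and 0.0609). MpFAD5 was higher only in mock plants by its calls (-0.492, adjusted p = 0.0422), and MpBHLH12 lower only there (0.648, adjusted p = 0.00154). A drop already called in mock plants was larger after wounding for MpFAD11 (-0.729, adjusted p = 0.0121) and MpPPO22 (-0.998, adjusted p = 0.00299).

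The remaining genes were not called in mock plants and were lower in the wounded mutant. They were MpLOX2 (-0.919, adjusted p = 0.00408), MpLOX4 (-1.57, adjusted p = 0.0429), MpLOX14 (-0.997, adjusted p = 0.00183), MpCYP74N2 (-0.961, adjusted p = 0.00681), MpJAZ (-0.742, adjusted p = 0.0257), MpCYP94-like (-1.62, adjusted p = 0.0257), MpCYP94L1 (-0.741, adjusted p = 0.0429) and MpNOP1 (-0.404, adjusted p = 0.0349).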

How the results depend on the processing

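The count of 620 mock calls (275 higher, 345 lower) was 1063 with DESeq2 (548 higher), 210 in a fit of the 6 mock libraries alone (83 and 127) and 304 without wounded mutant libraries A and B (108 and 196). It ran from 138 to 727 with 1 mock library left out (44 to 312 higher, 94 to 415 lower). In the fit of the mock libraries alone, the replicate block left 59 calls (21 and 38). Deviations of log2 CPM from the group mean correlated at -0.0893, -0.119 and 0.104 between same-numbered libraries of the genotypes. Between libraries with different numbers these correlations ran from -0.245 to 0.296. With means of only 3 libraries, such values cannot decide whether the numbers pair the libraries. Other scalings, filters, a robust prior and limma voom gave counts within 1.5 times of 620. The 1996 calls in wounded plants became 876 without libraries A and B, and 1153 to 1698 with 1 wounded library left out. The 451 genes with a genotype effect that differed became 805 with DESeq2, 252 without A and B, and 290 to 480 with 1 library left out. The 290 genes called in the same direction in both comparisons became 130 at 2-fold or more; with upper-quartile scaling 163 were higher and 171 lower in both. Among called named genes, 169 of 570 leave-out fits and 172 of 942 fits under other settings lost the call, and none reversed. The named genes include 33 that were added because they stood in all leave-outs, so these shares do not describe all calls. Over all calls, 42 of 275 higher and 91 of 345 lower ones stood without mutant library 2. Without mutant library 1, 211 and 269 stood. Signs turned for 3 genes that were not called: MpLOX9 (-0.0112 without mutant library 1, up to 0.75 in other leave-outs), MpABA4 (-0.0539 without mutant library 2, up to 0.21) and MpLOX4 (0.00152 without Tak-1 library 3, down to -0.53). The median of all genes stayed within 0.009 of 0 under every setting run. The cause of these shifts was not tested. With 3 libraries a group, differences of genes that vary within a genotype are not settled by these data.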
